A study of Saccharomyces cerevisiae with 6 samples.

Results

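The genes described here encode the mevalonate and early isoprenoid pathway of Saccharomyces cerevisiae: ERG10, ERG13, HMG1, HMG2, ERG12, ERG8, MVD1, IDI1, ERG20 and ERG9. They were chosen by gene symbol. All 10 were found among the 5449 S. cerevisiae genes of the array, each with 1 probe set, and every value lay above the background level of 5.06 on the log2 scale. The strains evolved on galactose are named in the labels as 62A (1 array), 62B (2 arrays) and 62C (1 array), and the reference is wild type (2 arrays). All share the strain background CEN.PK113-7D and were grown on minimal glucose-based medium in fermenters at pH 5.0, then sampled in mid exponential phase. The comparisons ask how strains adapted to galactose express these genes on glucose. Neither the origin of the paired arrays (separate cultures or not) nor the isolation of each evolved strain is stated in the labels, so p-values measure only the spread between these arrays, which may be technical.

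The mevalonate pathway builds the isoprenoid units of the cell from acetyl-CoA. Acetyl-CoA is condensed to HMG-CoA, which HMG-CoA reductase converts to mevalonate in the main controlled step. Mevalonate is then phosphorylated and decarboxylated to isopentenyl diphosphate, from which farnesyl diphosphate and squalene are made. In yeast most of this flow ends in ergosterol, the membrane sterol, and smaller branches feed ubiquinone, dolichol, heme A and prenylated proteins. The pathway is known to be controlled through transcription by sterol-sensing factors and through regulated breakdown of HMG-CoA reductase.

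Values are log2 expression per probe set, so a difference of 1 is a doubling. Arrays of 1 strain lay close together. For the 10 genes the gap between the 62B arrays had a median of 0.051 and a largest value of 0.098, and that between the reference arrays a median of 0.078 and a largest value of 0.11. Median values over all 5449 genes lay between 7.30 and 7.34 on the 6 arrays. The mating-type a marker genes MFA1, MFA2, STE2 and BAR1 were above background on all arrays (8.04 to 11.28). The number of arrays limits the precision. The strain comparisons had 2 residual degrees of freedom, both from the 62B and reference pairs, and that spread was taken to hold for 62A and 62C, which have no second array.

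On glucose the pathway was lower in 62A and 62C than in the reference, and mixed in 62B. In 62A 8 of the 10 genes fell and 0 rose (median log2 change −0.34, against −0.036 over all genes). In 62C 8 fell and 0 rose (median −0.45, against −0.044 over all genes). At an unadjusted limma p under 0.05 the count higher was also 0 in both strains. In 62B 3 fell, 3 rose and 4 did not pass the test (median 0.063, against −0.01 over all genes). A gene was said to rise or fall where its limma p, adjusted by Benjamini-Hochberg across all 5449 genes, was under 0.05. Of all genes, 14.9% passed as lower and 10% as higher in 62A. The shares were 21.3% and 20.1% in 62B, and 23.3% and 14.7% in 62C. The 3 comparisons share the reference arrays and are not independent of one another.

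**Figure D1:**
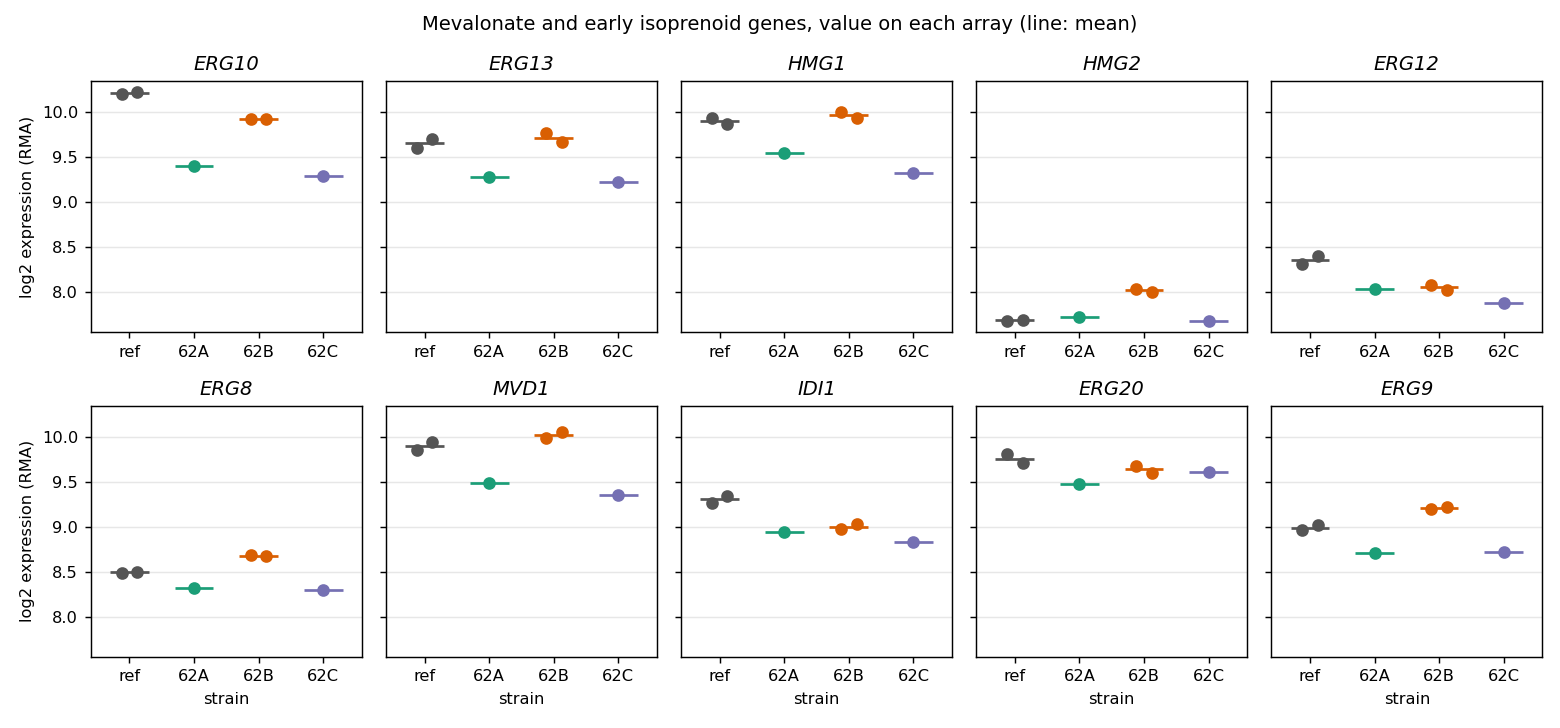
Log2 expression of each of the 10 genes on each of the 6 arrays, by strain (ref, reference). Points are arrays and lines are means; ERG10 lay between 10.21 and 10.22 in the reference, at 9.93 and 9.92 in 62B, at 9.41 in 62A and at 9.29 in 62C.

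The pathway opens with ERG10, the cytosolic acetoacetyl-CoA thiolase that joins acetyl-CoA units, and this gene had the largest fall of the 10 in 62A and in 62C. Its value was 10.21 and 10.22 on the reference arrays, 9.93 and 9.92 on the 62B arrays, 9.41 in 62A and 9.29 in 62C. All evolved arrays lay below both reference arrays, with 62B nearest to them. The changes were −0.80 ± 0.06 in 62A (57.3% of the reference level, limma adjusted p = 1.69e-05), −0.29 ± 0.05 in 62B (81.8%, limma adjusted p = 0.00108) and −0.92 ± 0.06 in 62C (52.7%, limma adjusted p = 2.88e-06). Errors written with ± are standard errors of the fit. By absolute size the ERG10 change exceeded that of 98.4% of all genes in 62A, 83.2% in 62B and 97.8% in 62C.

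ERG13 encodes HMG-CoA synthase, which adds the next acetyl unit. Its value was 9.60 and 9.71 on the reference arrays, 9.77 and 9.67 on the 62B arrays, 9.29 in 62A and 9.23 in 62C. The 62B and reference arrays overlapped, and 62A and 62C lay below them. It fell by 0.37 ± 0.07 in 62A (limma adjusted p = 0.00535) and by 0.43 ± 0.07 in 62C (limma adjusted p = 0.00132). In 62B the difference was 0.062 with a 95% confidence interval from −0.067 to 0.19.

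HMG1 and HMG2 encode the paralogous HMG-CoA reductases, of which Hmg1 is the main isozyme in aerobic cells and Hmg2 is the isozyme subject to regulated degradation. HMG1 was at 9.94 and 9.87 in the reference, 9.54 in 62A and 9.33 in 62C. In 62B its mean was 9.97, with a gap of 0.061 between the arrays, so 62B and the reference overlapped while 62A and 62C lay below both. It fell by 0.36 ± 0.06 in 62A (limma adjusted p = 0.00344) and by 0.58 ± 0.06 in 62C, to 67.1% of the reference level (limma adjusted p = 0.000128). In 62B its difference of 0.065 ± 0.05 did not pass (limma adjusted p = 0.343).

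HMG2 had another pattern. It was at 7.69 and 7.69 on the reference arrays, against 7.73 in 62A, 8.04 and 8.01 in 62B and 7.69 in 62C. Both 62B arrays stood above all others, and 62A and 62C were close to the reference. HMG2 rose by 0.33 ± 0.05 in 62B (1.26-fold, limma adjusted p = 0.000516). Its differences were 0.044 in 62A (95% confidence interval −0.085 to 0.17) and −0.0029 in 62C (−0.13 to 0.13), and the sign of the latter turned when arrays were rescaled. HMG2 and ERG20 were the only genes of the 10 that did not fall past the threshold in 62C.

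The balance of the 2 reductase transcripts can be read within each array as HMG2 minus HMG1, set to 0 at the reference mean. The reference arrays were at −0.038 and 0.038. The difference was 0.26 and 0.28 on the 62B arrays, 0.40 in 62A and 0.57 in 62C. Every evolved array thus had more HMG2 relative to HMG1 than either reference array. In 62B HMG2 was the member that passed the test, upward, while in 62A and 62C it was HMG1, downward. This difference was not tested as a ratio.

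The enzymes from mevalonate to isopentenyl diphosphate are mevalonate kinase (ERG12), phosphomevalonate kinase (ERG8) and the diphosphomevalonate decarboxylase (MVD1). They differed from each other. ERG12 was at 8.32 and 8.41 in the reference, 8.04 in 62A, 7.88 in 62C and 8.08 and 8.03 in 62B, so all evolved arrays were below both reference arrays. It fell by 0.32 ± 0.06 in 62A (limma adjusted p = 0.0069), by 0.31 ± 0.05 in 62B (limma adjusted p = 0.00152) and by 0.48 ± 0.06 in 62C (limma adjusted p = 0.000395).

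ERG8 changed least of the 3 in 62A and 62C, and its reference arrays lay between the strains. Its value was 8.49 and 8.50 in the reference, 8.69 and 8.68 on the 62B arrays, 8.32 in 62A and 8.30 in 62C. It rose by 0.19 ± 0.05 in 62B (limma adjusted p = 0.0107) and fell by 0.20 ± 0.06 in 62C (limma adjusted p = 0.0215), while its difference of −0.17 in 62A did not pass (limma adjusted p = 0.0525, and 0.0265 after quantile normalization). The calls of these small ERG8 changes rested on the pair of 62B arrays and were lost without either of them. The 62B difference was then 0.18 without the first array and 0.19 without the second, and the 62C difference stayed at −0.20.

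MVD1 was at 9.85 and 9.95 on the reference arrays, against 9.49 in 62A, 9.99 and 10.06 in 62B and 9.36 in 62C. It fell by 0.41 ± 0.07 in 62A (limma adjusted p = 0.00223) and by 0.55 ± 0.07 in 62C (limma adjusted p = 0.00023). In 62B both arrays were above both reference arrays, but the difference of 0.12 ± 0.05 did not pass (limma adjusted p = 0.0927). MVD1 did pass after quantile normalization and without the second reference array (limma adjusted p = 0.0371 and 0.0246).

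IDI1, the isopentenyl diphosphate isomerase, moved in the same direction in all strains. Its value was 9.26 and 9.35 in the reference, 8.94 in 62A, 8.84 in 62C and 8.98 and 9.03 in 62B. It fell by 0.36 ± 0.06 in 62A (limma adjusted p = 0.0035), by 0.30 ± 0.05 in 62B (limma adjusted p = 0.00156) and by 0.47 ± 0.06 in 62C (limma adjusted p = 0.000433). In each strain this left IDI1 at between 72.2% and 81.1% of the reference level.

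ERG20, the farnesyl diphosphate synthase that supplies both sterols and the other isoprenoid branches, varied little. It was at 9.81 and 9.72 in the reference, 9.68 and 9.60 on the 62B arrays, 9.48 in 62A and 9.61 in 62C. All evolved arrays were below both reference arrays, by a small margin for 62B. It fell by 0.29 ± 0.07 in 62A (limma adjusted p = 0.014), while its differences of −0.12 in 62B and −0.15 in 62C did not pass (limma adjusted p = 0.104 and 0.11). Without the second reference array the ERG20 differences were −0.17 in 62B and −0.20 in 62C and passed (limma adjusted p = 0.0303 and 0.0314).

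ERG9 encodes squalene synthase, which commits farnesyl diphosphate to sterols. Its value was 8.97 and 9.02 on the reference arrays, against 8.71 in 62A, 9.20 and 9.22 in 62B and 8.73 in 62C. The 62B arrays were above and the 62A and 62C arrays below the reference pair. ERG9 rose by 0.22 ± 0.05 in 62B (1.16-fold, limma adjusted p = 0.00575) and fell by 0.28 ± 0.06 in 62A (limma adjusted p = 0.0083) and by 0.27 ± 0.06 in 62C (limma adjusted p = 0.00637). Its rise in 62B had a limma adjusted p of 0.0511 without the first 62B array and 0.0756 without the second.

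**Figure D2:**
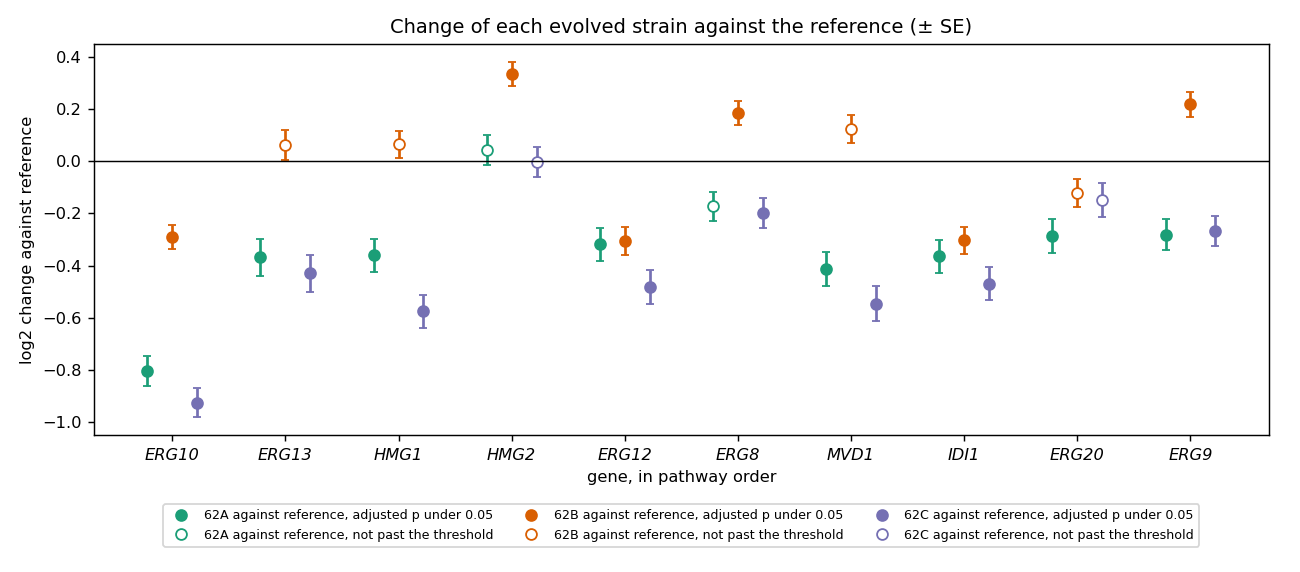
Log2 change of each gene against the reference in 62A, 62B and 62C, in pathway order, with standard errors; filled points passed the limma threshold and open points did not. The 62B points lie highest for all 10 genes, with the narrowest margins for ERG12 over 62A (−0.31 and −0.32) and ERG20 over 62C (−0.12 and −0.15), and these 2 orders turned when arrays were rescaled.

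The evolved strains were compared with each other without use of the reference level. The moderated F test over 62A, 62B and 62C passed for 7 of the 10 genes, against 28.8% of all genes: ERG10, ERG13, HMG1, HMG2, ERG8, MVD1 and ERG9. Each of these 7 was higher in 62B than in 62A and than in 62C, and 0 genes were lower, since all 10 differences were above 0 in limma. Of all genes, 9.38% were called higher and 6.77% lower in 62B than in 62A, and 19.5% higher and 14.1% lower in 62B than in 62C. The 2 comparisons share the 62B arrays.

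MVD1 had the widest spread among the strains. It was higher in 62B by 0.54 ± 0.07 than in 62A (1.45-fold, limma adjusted p = 0.000594) and by 0.67 ± 0.07 than in 62C (1.59-fold, limma adjusted p = 8.48e-05). HMG1 was higher by 0.42 ± 0.06 than in 62A (limma adjusted p = 0.0018) and by 0.64 ± 0.06 than in 62C (1.56-fold, limma adjusted p = 8.32e-05). ERG10, although below the reference in 62B, was still higher there by 0.51 ± 0.06 than in 62A (limma adjusted p = 0.000318) and by 0.64 ± 0.06 than in 62C (limma adjusted p = 4.77e-05).

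At the other end of the pathway, ERG9 was also higher in 62B by 0.50 ± 0.06 than in 62A (limma adjusted p = 0.000457) and by 0.48 ± 0.06 than in 62C (limma adjusted p = 0.000338). ERG13 was higher by 0.43 and 0.49, ERG8 by 0.36 and 0.38, and HMG2 by 0.29 and 0.34 than in 62A and 62C. HMG2 against 62A had a limma adjusted p of 0.0086, and of 0.1 and 0.0627 without the first and the second 62B array. Its F test had an adjusted p of 0.00298 in limma, and of 0.0625 without the first 62B array.

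ERG12, IDI1 and ERG20 did not pass the F test (limma adjusted p = 0.127, 0.161 and 0.188), though ERG12 passed it without either reference array (0.0408 each time). ERG20 in 62B against 62A, a difference of 0.17, likewise did not pass with all arrays (limma adjusted p = 0.132) and passed without either reference array (0.0471). For ERG12 the 62B minus 62A difference was 0.013 with a 95% confidence interval from −0.13 to 0.16, and for IDI1 it was 0.062 (−0.081 to 0.20). Their differences from 62C, 0.18 and 0.17, missed the threshold with all arrays (limma adjusted p = 0.0596 and 0.0688) and passed it without either reference array (0.0179 and 0.0226). Leaving out a reference array changed none of these differences between evolved strains. It changed only the array spread used in the test, which then came from the 62B pair alone. ERG20 was the gene of the 10 with the smallest spread among the evolved strains, 0.165 against 0.168 for IDI1. Between 62A and 62C 0 of the 10 genes differed past the threshold, against 0.514% of all genes called higher and 1.91% called lower in 62A, and only HMG1, with a difference of 0.21 (95% confidence interval 0.052 to 0.38), had an unadjusted p under 0.05.

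**Figure D3:**
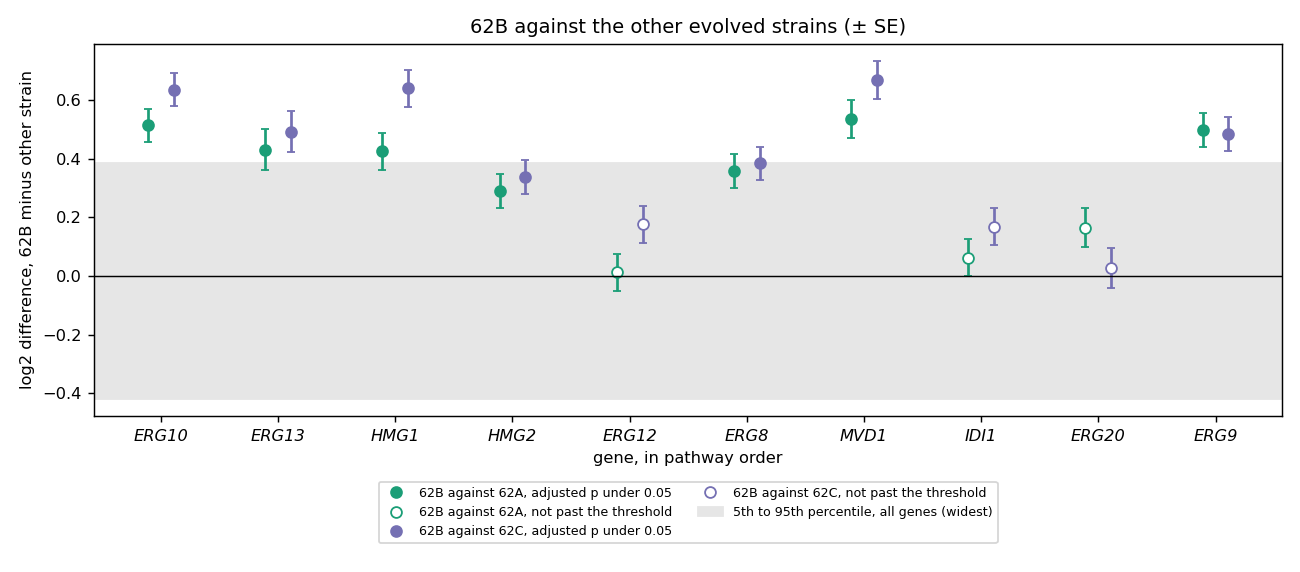
Log2 difference of 62B from 62A and from 62C for each gene, with standard errors; filled points passed the limma threshold, and the grey band runs from −0.42 to 0.38, the wider 5th to 95th percentile range of all genes. Against 62C, MVD1, HMG1 and ERG10 stand highest, and against 62A MVD1 and ERG10. Both points of ERG12, IDI1, ERG20, HMG2 and ERG8 lie within the band, which is that of the comparison with 62C. Against 62A the 95th percentile of all genes was 0.288, with HMG2 (0.290) and ERG8 (0.358) above it and ERG12, IDI1 and ERG20 below.

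A technical measure also had its highest means on the 62B arrays. Control genes carry probe sets at both transcript ends, and the log2 difference between the 3' and the 5' set, which reflects RNA integrity and labelling, averaged over 8 such genes, was 2.01 and 2.05 on the 62B arrays, 1.89 in 62A, 1.73 in 62C, and 1.90 and 1.84 in the reference. The TDH1 control alone ranged from 1.17 in 62C to 2.59 in 62B, and without it the means were 1.93 and 1.98 in 62B, 1.91 in 62A, 1.82 in 62C, and 1.86 and 1.77 in the reference. The part of RNA quality in the differences of the pathway genes was not tested.

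With each evolved strain counted as 1 sample, few of the pathway genes passed in the evolved class. Of the 10 genes 1 fell and 0 rose, against 2.79% and 1.96% of all genes, and 4 had an unadjusted limma p under 0.05, all downward. The gene was IDI1, with a change of −0.38 ± 0.07 (3 strains against 2 reference arrays, limma adjusted p = 0.0472). This call was lost without 62A, 62C or the first 62B array (limma adjusted p = 0.153, 0.0702 and 0.0512), and without either reference array. It held without the second 62B array (limma adjusted p = 0.0474). ERG12 had a class change of −0.37 ± 0.07 (limma adjusted p = 0.0561) and ERG10 of −0.67 ± 0.19 (limma adjusted p = 0.0959). All 4 evolved arrays lay below both reference arrays for ERG10, ERG12, IDI1 and ERG20, 4 of the 10 genes, as they did for 27.4% of all genes. ERG20 had a class change of −0.19, and the other 6 genes had changes between −0.29 and 0.13.

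The steps that follow squalene were read from lists of sterol genes. ERG1, the squalene epoxidase, and ERG7, the lanosterol synthase, both fell in 62A (−0.48 and −0.40) and in 62C (−0.63 and −0.50). In 62B ERG7 rose by 0.22 and ERG1, at 0.12, did not pass (limma adjusted p = 0.329). Of 13 genes from lanosterol to ergosterol, 11 fell in 62A, 13 fell in 62C and 11 rose in 62B, with medians of −0.32, −0.44 and 0.42 in that order. In 62B the median over these 13 genes was thus above that of the 10 early genes, 0.063, of which 3 rose. In 62A and 62C the early and late medians were close. The difference between the early and late genes was not tested. As shares of all genes, 14.9% fell in 62A, 23.3% fell in 62C and 20.1% rose in 62B.

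Among the late genes, the sterol desaturase ERG3 was at 9.99 and 9.93 in the reference, 9.54 in 62A, 9.45 in 62C and 10.83 and 10.76 in 62B. The sterol reductase ERG24 and ERG29, which acts with the methylsterol oxidase, rose by 0.52 and 0.53 in 62B, ERG2 and the scaffold ERG28 by 0.43 and 0.40, and the methyltransferase ERG6 by 0.25. All 13 late genes passed the F test among the evolved strains, as did ERG1 and ERG7, against 7 of the 10 early genes and 28.8% of all genes.

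Genes that act on the sterol products were read from a list of 5. The acyl-CoA:sterol acyltransferases ARE1 and ARE2 and the steryl ester hydrolase YEH1 each fell in 62A (−0.33, −0.35 and −0.33) and in 62C (−0.44, −0.47 and −0.51). ARE2 and YEH1 rose in 62B (0.39 and 0.19), and ARE1, at 0.12, did not pass there (limma adjusted p = 0.0731). These 3 of the 5 genes passed the F test among strains, against 28.8% of all genes. The other genes of the list, the steryl ester hydrolases TGL1 and YEH2, are named outside the rule for named genes. TGL1 rose by 0.23 in 62B (limma adjusted p = 0.00458) and had differences of 0.086 in 62A and 0.097 in 62C that did not pass, and YEH2 passed in 0 of the 3 strains.

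Among the regulators, UPC2, the sterol-sensing activator of ERG genes, was at 6.10 and 6.17 in the reference, 6.31 and 6.27 on the 62B arrays, 5.98 in 62A and 5.95 in 62C. It rose by 0.16 in 62B (limma adjusted p = 0.0311) and fell by 0.18 in 62C (limma adjusted p = 0.0441). ROX1, the heme-dependent repressor of hypoxic genes, fell in all strains (−0.38 in 62A, −0.44 in 62B and −0.51 in 62C) and in the class (limma adjusted p = 0.0364). The class call of ROX1 was lost without 62A (limma adjusted p = 0.123), without either reference array (0.233 and 0.345) and with strain as a random block (0.0951). In the list of 5 regulators, which also held ECM22, HAP1 and MOT3, UPC2 alone passed the F test among strains, against 28.8% of all genes. Of these 5, 1 rose and 2 fell in 62B, against 20.1% and 21.3% of all genes. ECM22, named outside the rule for named genes, fell in 62B (−0.16, limma adjusted p = 0.0364), opposite to UPC2. It did not pass in 62A or 62C.

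Genes for the turnover of HMG-CoA reductase were mixed. Of 13, 3 fell in 62A, 5 fell in 62C, and in 62B 2 rose and 3 fell. For comparison, 14.9% of all genes fell in 62A and 23.3% in 62C, and in 62B 20.1% rose and 21.3% fell. The 2 that rose in 62B were HRD1 (0.19) and DER1 (0.23), and the 3 that fell were CDC48, NPL4 and UFD1 (−0.19). Here HRD1, DER1 and UFD1 are named outside the rule for named genes. NSG2, an Insig homologue, was higher in 62B than in 62A by 0.32 and than in 62C by 0.34, and its differences from the reference did not pass (−0.17 in 62A, 0.15 in 62B and −0.19 in 62C). The segregase CDC48 fell in 62B (−0.35), and its cofactor NPL4 fell in all 3 strains (−0.35, −0.29 and −0.25) and in the class (limma adjusted p = 0.0446). The class call of NPL4 was lost without 62A, 62C or either reference array (limma adjusted p = 0.064 to 0.345), with quantile normalization (0.0508), the replicate block (0.0535), an intensity trend (0.0582) and strain as a random block (0.141). CUE1, which anchors the ubiquitin-conjugating enzyme at the endoplasmic reticulum, fell in 62A and 62C (−0.20 and −0.22). The ATPase SPF1 fell in 62C (−0.30). CUE1 and SPF1 lay near 0 in 62B.

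The branches that draw on farnesyl diphosphate and its precursors had medians near 0. Of 18 genes, 1 passed as higher and 2 as lower in 62A (median 0.018). In 62B 6 were higher and 4 lower (median 0.043), and in 62C the counts were 1 and 3 (median 0.0052). Over all genes the shares higher and lower were 10% and 14.9% in 62A, 20.1% and 21.3% in 62B, and 14.7% and 23.3% in 62C. NUS1, a subunit of the dehydrodolichyl diphosphate synthase complex, was at 7.47 and 7.55 on the reference arrays, against 7.63 in 62A, 8.11 and 8.05 in 62B and 7.58 in 62C, a rise of 0.57 in 62B. STE14, the prenylcysteine carboxyl methyltransferase, fell by 0.43 in 62B and by 0.28 in 62C. NUS1 and STE14 were the 2 genes of this list that passed the F test, which 28.8% of all genes passed.

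On the supply side, 9 genes of cytosolic acetyl-CoA formation and use were measured. ACS2, the acetyl-CoA synthetase used on glucose, was at 10.73 and 10.77 in the reference, 10.45 in 62A, 10.36 in 62C and 10.74 and 10.68 in 62B. It fell by 0.30 in 62A (limma adjusted p = 0.0069) and by 0.39 in 62C (limma adjusted p = 0.000968), and its difference in 62B, −0.042, did not pass. ALD6, the main cytosolic acetaldehyde dehydrogenase, fell by 0.18 in 62C, while ALD3, a stress-induced aldehyde dehydrogenase, rose in all 3 strains (0.47, 0.23 and 0.64). Over the list 1 gene passed as higher and 1 as lower in 62A, against 2 and 1 in 62B and 2 and 2 in 62C. The shares of all genes, in the same order, were 10% and 14.9% in 62A, 20.1% and 21.3% in 62B, and 14.7% and 23.3% in 62C.

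**Figure D4:**
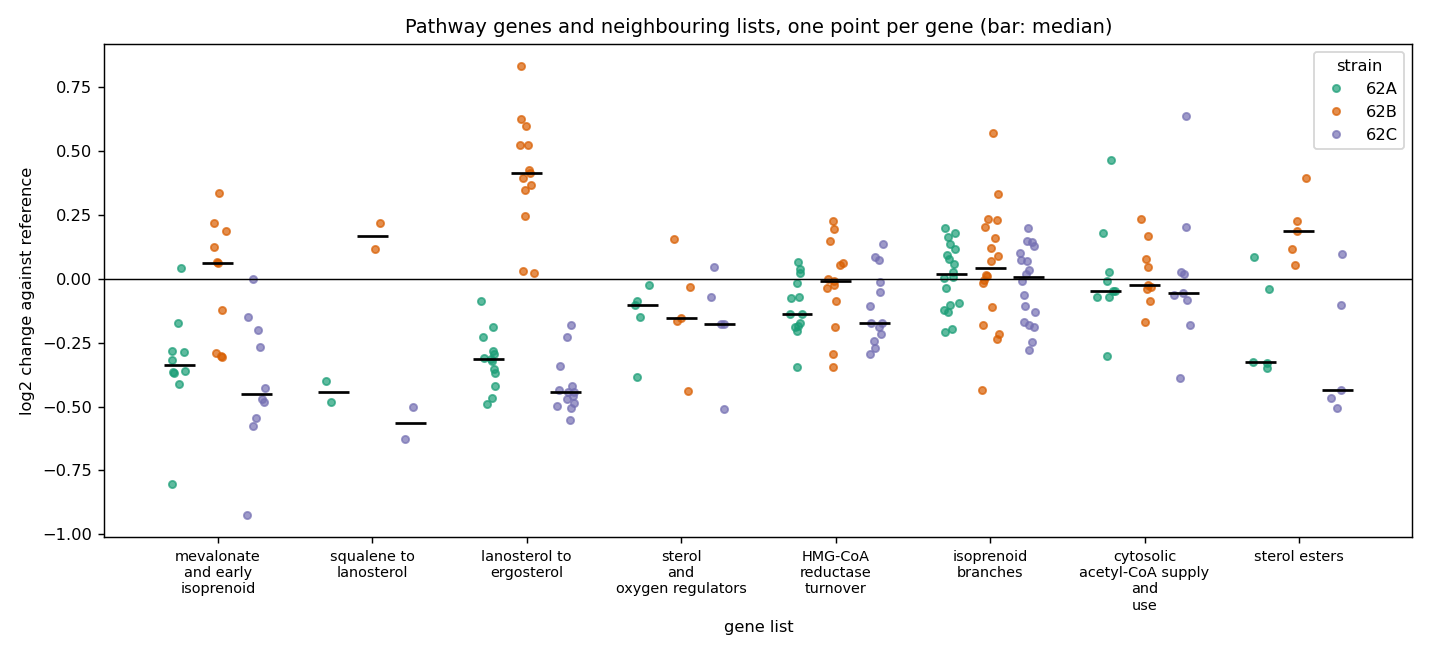
Log2 change against the reference for every gene of 8 lists in 62A, 62B and 62C; points are genes and bars are medians. The 10 early genes have medians of −0.34, 0.063 and −0.45 in 62A, 62B and 62C, and the 13 late genes of −0.32, 0.42 and −0.44.

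For 3 of the genes, the genes outside the 10 with the most similar changes were sought, by the Euclidean distance over the 3 strain changes. Nearest to ERG10 were ARG1 of arginine synthesis (distance 0.12), MET8 of siroheme synthesis (0.21), the transcription factor SFG1 (0.25) and the amino acid permease AGP1 (0.27). Nearest to HMG1 were the arginase CAR1 (0.069), the glucanase DSE4 (0.074), the ammonium permease MEP3 (0.086) and IMD4 of guanine nucleotide synthesis (0.11). Nearest to ERG9 were SOL3 of the pentose phosphate pathway (0.086), the protein kinase SCH9 (0.10), RIA1 of ribosome maturation (0.10) and the histone-binding prolyl isomerase FPR4 (0.11). None of these 12 genes belongs to the other sterol lists. The 10 pathway genes were left out of the search beforehand, so whether any of them lay nearer was not examined. The likeness rests on 3 values that share the reference arrays, and it is a description only.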

How the data were processed

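RNA abundance was measured on Affymetrix yeast arrays, 6 in all. The deposited values are on the log2 scale, and the submitters' processing notes name RMA and affy as the tools. The sources used here give no versions, no genome build and no list of the arrays normalized together. No value was rescaled, and no coordinates or sequences are printed. Of 10928 probe sets, 5498 matched 1 S. cerevisiae gene each by gene identifier in the current RefSeq table. For 47 genes with several, the one of highest mean was used, which left 5449 genes. Background was the 95th percentile of 1746 named probe sets without a match in the S. cerevisiae RefSeq table, taken to be those of another yeast species.

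Fits used limma 3.58.1 in R 4.3.3 (lmFit, eBayes, two-sided) with Benjamini-Hochberg adjustment over all 5449 genes at 0.05: 1 term per strain over 6 arrays (2 residual degrees of freedom), a moderated F statistic among evolved strains, and the class of 3 strain values against 2 reference arrays (3 residual degrees of freedom). They were tested on simulated data. The genes and lists were chosen with earlier results of these data known. All 10 pathway genes are named. From each of 7 other lists, the genes passing the F or class test are named (at most 6), and 4 genes most alike per chosen member. Alternatives covered normalization, a background filter, probe set choice, variance prior, the weight of the 62B pair, a replicate term and each array left out.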

Additional observations from a re-analysis of the deposited data

Results flagged for a closer look

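The change against the reference differed among the 3 evolved strains for 7 genes, by the moderated F test of limma, which 28.8% of all genes passed. The range of the strain values was 0.635 for ERG10 (adjusted p = 7e-05), 0.491 for ERG13 (adjusted p = 0.00109), 0.64 for HMG1 (adjusted p = 0.000182) and 0.337 for HMG2 (adjusted p = 0.00298). It was 0.384 for ERG8 (adjusted p = 0.00113), 0.668 for MVD1 (adjusted p = 0.000131) and 0.498 for ERG9 (adjusted p = 0.000257). In each case 62B was the highest of the 3. For ERG8, MVD1 and ERG9 the values of 62B lay above, and those of 62A and 62C below, both reference arrays.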

How the results depend on the processing

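Rescaling, the background filter, probe set averaging and the variance prior left the counts of pathway genes called in each strain comparison within 1.5 times. The class count of 1 gene lower became 2 with quantile normalization, with median-centred arrays and with 4 evolved arrays as separate samples, and 0 with an intensity trend in the prior variance and with strain as a random block. Leaving out 1 array at a time gave 0 to 1 genes lower in the class, 8 to 9 lower in 62A, 7 to 9 lower in 62C, 3 to 4 lower and 1 to 4 higher in 62B, 6 to 8 higher in 62B than in 62A, 7 to 9 higher in 62B than in 62C, and 6 to 8 that differed among strains. Signs turned only for values that did not pass: with quantile normalization HMG2 in 62C (0.021), ERG12 in 62B against 62A (−0.023), SPF1 in 62B (0.015) and ACS2 in 62B (0.012); with median-centred arrays HMG2 in 62C (0.022), ERG12 in 62B against 62A (−0.011) and ERG20 in 62B against 62C (−0.0045); and in the class with the replicate block ERG8 (0.036) and ERG9 (0.028). Leaving out 1 array turned signs of such values too: the range was −0.067 to 0.0061 for ERG8 in the class, −0.0058 to 0.00014 for HMG2 in 62C, −0.012 to 0.039 for ERG12 in 62B against 62A, −0.014 to 0.069 for ERG20 in 62B against 62C, and in 62B −0.014 to 0.25 for ERG1, −0.047 to 0.042 for SPF1 and −0.019 to 0.0022 for CUE1. The causes were not tested. In the class, the replicate block also counted the 4 evolved arrays as separate samples. Separate arrays without the block gave −0.00041 for ERG8 and −0.028 for ERG9, against −0.062 and −0.11 with each strain as 1 sample. The replicate numbers of 62B and the reference did not deviate together (correlation −0.06 over genes). With the replicate block ERG20 passed as lower in 62C (−0.19) and as higher in 62B than in 62A (0.21), and no other call of the 10 genes changed.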
